A study of Arabidopsis thaliana with 3 samples.

Results

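The nuclear tRNA genes of Arabidopsis thaliana are described here by their chromatin accessibility in root nuclei. All genes annotated as tRNA on the 5 nuclear chromosomes of TAIR10.1 were taken, each with 500 bp on both sides, and 23 genes on chromosome 2 between 3.24 and 3.51 Mb were left out. This gave 602 of 625 nuclear tRNA genes, among 37899 annotated nuclear genes. They covered 20 amino acids and 46 anticodons, and were 69 to 90 bp long with a median of 73 bp. The data were 3 ATAC-seq libraries of a single group, made with the transposase Tn5, which cuts and tags DNA where it is open. The plants were Col-0 at 14 days of age and carried a single plasmid for INTACT, which puts a biotin tag on the nuclear envelope so that nuclei can be caught on streptavidin beads. The tag was driven by the constitutive 35S promoter, so the nuclei came from mixed root cell types, and a level is an average over them. The study calls the libraries biological repeats, but nothing says how separately the plants were grown, so errors and p-values measure only the spread between these libraries, which by the study's supplement began with unequal numbers of nuclei.

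tRNA genes are transcribed by RNA polymerase III. Their promoter lies inside the gene, where the A box and the B box are bound by TFIIIC, which then places TFIIIB and the polymerase upstream of the start. In plants a TATA-like stretch and a CAA shortly before the gene, and a run of T after it, also belong to these genes. Many tRNA genes exist as identical copies, so that a short read from inside a gene can come from several places in the genome.

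The sequences that the results turn on are printed 5′ to 3′ on the strand of the gene, from the RefSeq TAIR10.1 reference, with the B box letters GTTCNANNC in capitals where they occur. The first and the second are genes for tRNA-Trp and tRNA-Val found at several positions with very different signal. The third and the fourth are initiator tRNA-Met genes, the ones of highest and lowest signal among members with at least 90% of reads placeable, which differ at 2 bases and do not hold the B box letters. The next is a tRNA-Tyr gene in which every read could be placed. The last 3 are the tRNA-Tyr and tRNA-Ser sequences most often repeated in the largest tandem cluster and the tRNA-Pro sequence of the other clusters.
Trp, AT4G17612 and AT3G03845: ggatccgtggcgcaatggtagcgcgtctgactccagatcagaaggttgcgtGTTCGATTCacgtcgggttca
Val, AT5G56975 and AT3G26747: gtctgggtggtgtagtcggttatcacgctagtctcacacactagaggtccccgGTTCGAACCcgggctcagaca
Initiator Met, AT1G69000: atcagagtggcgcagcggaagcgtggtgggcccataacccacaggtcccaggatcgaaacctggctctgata
Initiator Met, AT1G42120: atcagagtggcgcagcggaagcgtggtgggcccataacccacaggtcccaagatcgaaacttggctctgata
Tyr, AT3G10415: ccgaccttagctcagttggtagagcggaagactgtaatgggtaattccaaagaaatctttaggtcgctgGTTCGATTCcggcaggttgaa
Tyr, AT1G56750: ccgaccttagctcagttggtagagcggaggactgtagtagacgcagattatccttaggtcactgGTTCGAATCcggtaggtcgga
Ser, AT1G56760: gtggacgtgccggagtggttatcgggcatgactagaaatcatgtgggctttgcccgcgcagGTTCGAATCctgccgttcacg
Pro, AT1G28920: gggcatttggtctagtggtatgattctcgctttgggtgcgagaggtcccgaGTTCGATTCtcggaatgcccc

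The B box letters were found in 550 of the 602 genes (91.4%), against 1.17% of all 73-bp windows of the nuclear genome, with each strand counted. The 52 genes without them were of few kinds. Outside tandem clusters they were all 16 tRNA-Ala genes with the anticodon AGC, all 10 tRNA-His genes, all 10 initiator tRNA-Met genes and a single tRNA-Arg gene. The A box letters, searched as TNGNNNAGT on the strand of the gene, were found in 427 genes (70.9%, genome 5.98%). TATAA lay within 50 bases upstream of 210 genes (34.9%, genome 10.1%), CAA within 10 bases upstream of 449 (74.6%, genome 17.9%), and TTTT within 25 bases downstream of 573 (95.2%, genome 20.4%). All 5 patterns were met by 90 genes. A match to these letters is a description of the sequence and not a measured binding site. Nor does a missing match mean a missing B box. The initiator tRNA-Met genes printed above hold GATCGAAAC, and the tRNA-Ala gene AT2G02600 (anticodon AGC) holds GATCGATAC. Both have A in place of the first T of GTTCNANNC. An intron was annotated in 81 genes, all 70 tRNA-Tyr genes and the 11 tRNA-Met genes of the elongator kind.

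In each library the deposited table gave the count of reads over 100-bp windows starting every 25 bp, and summed to 61786860, 64805459 and 113785786 window counts in libraries 1, 2 and 3. The signal of a region is its mean window count divided by the mean over all nuclear windows of the library, with windows without reads counted as 0, so that 1 is the genome average. Windows are longer than a tRNA gene, and the value of the gene alone therefore includes reads from its immediate flanks.

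tRNA genes with their flanks were more accessible than the genome average in all 3 libraries. Their mean signal was 1.43, 1.53 and 1.40 in libraries 1, 2 and 3, or 1.45 ± 0.07 (SD, n = 3). Over the gene alone it was 1.56, 1.83 and 1.48, or 1.62 ± 0.18 (SD, n = 3). With 3 libraries the exact two-sided sign-flip permutation test cannot go below 0.25, and p = 0.25 was obtained for both values. The median gene with its flanks lay at 1.43, 1.52 and 1.49, and 467, 460 and 480 of the 602 genes were above 1. The lower end was made up almost entirely of a single tandem cluster, described further on. Without its 81 genes the mean was 1.65, 1.76 and 1.61, and 7, 11 and 8 of 521 genes were below 0.5. A window of the same length around the start of all 27349 protein-coding genes that could be measured had a mean of 1.36, 1.47 and 1.33, lower than tRNA genes in each library by less than 0.1 and not corrected for the cluster.

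Accessible sites, the peaks that the authors called in each library, overlapped the gene or its flanks in 277, 345 and 334 of the 602 tRNA genes in libraries 1, 2 and 3, which is 46.0%, 57.3% and 55.5%. Tiles of the genome of the same length (1073 bp) were overlapped in 20.7%, 27.7% and 26% of cases. Windows of that length around protein-coding starts were overlapped in 44.9%, 59.7% and 53%. A site in all 3 libraries was found at 255 tRNA genes (42.4%), against 18.4% of tiles and 41.9% of protein-coding starts. tRNA genes thus stood far above the tiles and close to protein-coding starts in this measure. No site in any library was found at 221 genes.

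The gene alone was overlapped by a site less often, in 100, 207 and 129 genes (16.6%, 34.4% and 21.4%). Tiles of the median gene length were overlapped in 5.8%, 8.78% and 7.94% of cases. In all 3 libraries the gene alone was overlapped in 78 cases (13.0%), against 4.66% of tiles. Library 2 gave more such genes than library 3, although library 3 was the deepest. Only 1 gene had the summit of a site inside it in all 3 libraries. The share of tiles with such a summit was not computed, so this count cannot be set against the genome.

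**Figure D1:**
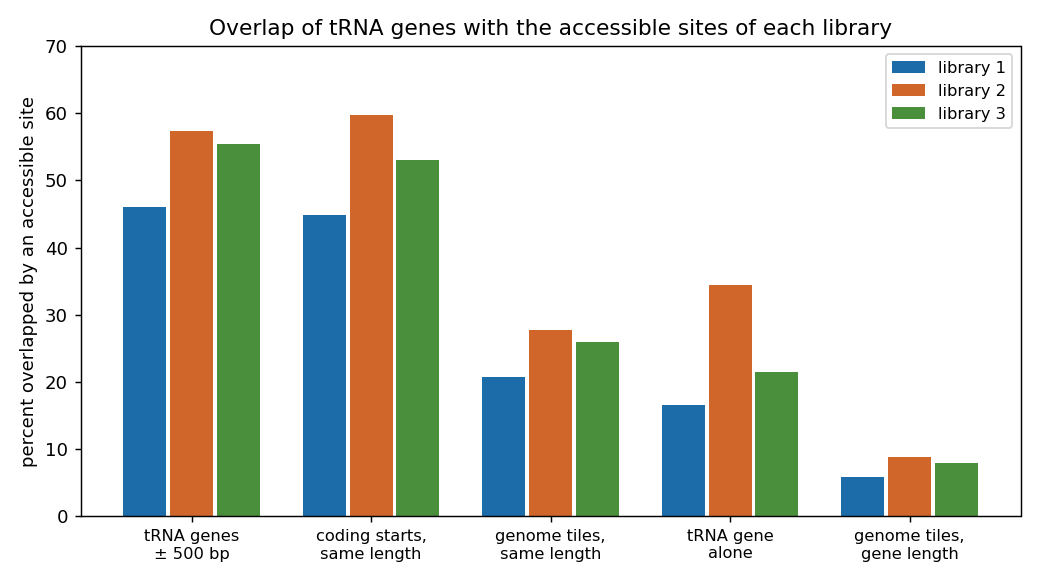
Percent of tRNA genes and of comparison regions overlapped by at least 1 bp by an accessible site, one bar per library. tRNA genes with 500 bp on both sides (46.0%, 57.3% and 55.5%) lie near protein-coding starts and above genome tiles of the same length, and the gene alone lies above tiles of gene length.

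The position of the signal was followed along the gene in the 479 genes outside tandem clusters. In the deposited counts there were maxima on both sides of the gene and lower values over it. The mean signal was 2.11, 2.38 and 1.99 at 75 bp upstream of the 5′ end in libraries 1, 2 and 3, 1.81, 2.13 and 1.70 at the 5′ end, and 2.14, 2.37 and 2.01 at 150 bp downstream. All 3 libraries had this shape. The share of reads that can be placed dropped over the same bases. For reads of 61 bases with up to 2 mismatches, 99.4% of reads over the window centred 75 bp upstream have a single position in the reference, 81.6% at the 5′ end and 99.0% at 150 bp downstream. When the count of each window was divided by that share, the profile had its highest point 25 bp inside the gene in each library, at 2.34, 2.77 and 2.19. At 500 bp upstream the scaled profile was at 1.42, 1.46 and 1.41. Dividing by the share raises the windows over the gene most, so the scaling itself favours a maximum there. It assumes that unplaced reads are as frequent at each copy as placed ones, which was not tested.

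The few genes in which nothing was lost to mapping allow a direct reading. In 12 genes outside clusters every read over the region had a single position. Their mean signal over the gene alone was 2.64, 2.89 and 2.34, against 2.17, 2.19 and 1.96 with the flanks. Their profile had its maximum at 125, 50 and 125 bp from the 5′ end in libraries 1, 2 and 3, on or just after the gene, and the lowest values lay 400, 600 and 425 bp from it. Such genes are few and their sequences are not typical of the family.

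**Figure D2:**
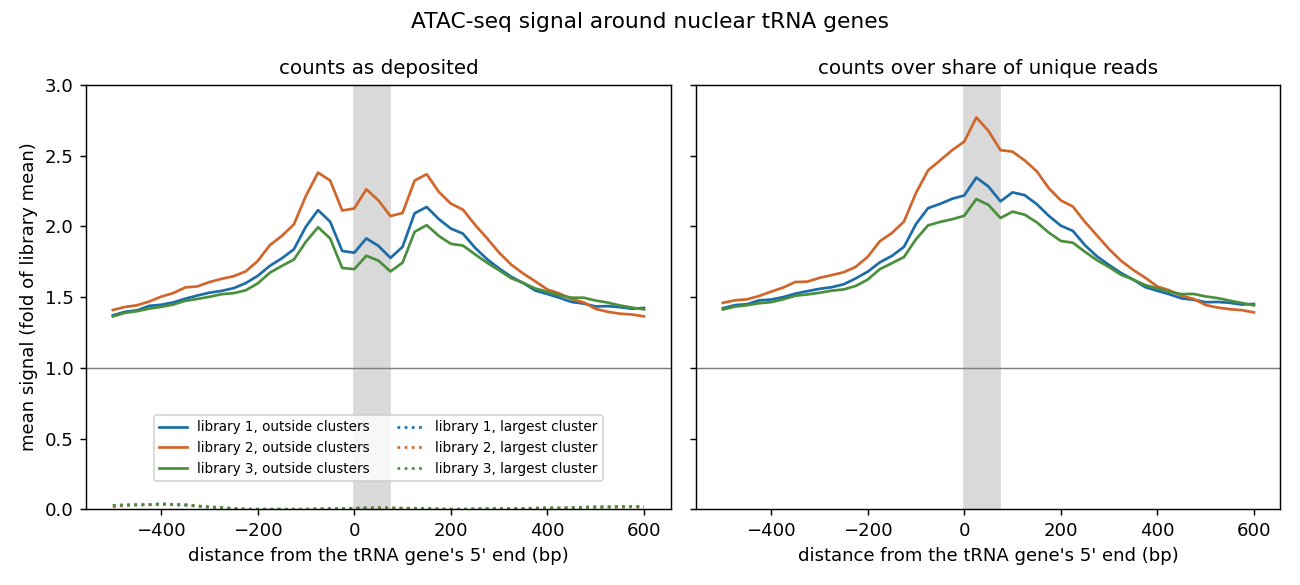
Mean signal (fold of library mean) by distance from the 5′ end of the tRNA gene in bp, on the strand of the gene, with the median gene length shaded. Solid lines are the 479 genes outside tandem clusters and dotted lines the 81 genes of the largest cluster, one per library. The left panel has the deposited counts, with maxima at 75 bp upstream or 150 bp downstream, and the right panel the counts divided by the share of reads with a single position, with the maximum 25 bp inside the gene.

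Over all 602 genes the gene alone exceeded its flanks by 1.10, 1.22 and 1.06 times in libraries 1, 2 and 3, or 1.13 ± 0.08 (SD, n = 3, exact sign-flip permutation p = 0.25, the smallest possible). This direction depended on the flank length, since against flanks of 250 bp the ratio was 0.995, 1.06 and 0.978, below 1 in libraries 1 and 3. With counts scaled by the share of placeable reads and 500-bp flanks it was 1.31, 1.44 and 1.26. Upstream and downstream flanks were nearly equal, with a ratio of upstream to downstream of 0.96, 0.98 and 0.95. Summits of sites were fewer over the gene than on either side of it, and their density over the genome was not computed. Around the genes outside clusters 10, 33 and 19 summits fell in the 100 bp from the 5′ end, against 55, 72 and 67 in the 100 bp before it and 136, 172 and 166 in the 200 bp that follow. The loss of reads over the gene, given above, moves with this pattern, and its part in it was not tested.

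A protein-coding gene started within 500 bp of 248 tRNA genes, so flanks can hold the promoter of another gene. Outside clusters, the 245 tRNA genes with such a start had a mean signal of 1.80, 1.91 and 1.75, and the 234 without one had 1.57, 1.71 and 1.53. The difference had the same sign in all 3 libraries. tRNA genes away from coding starts were thus also above the genome average. A site in all 3 libraries was found at 155 of the 245 and at 97 of the 234 (63.3% and 41.5%). Over the gene alone it was found at 53 and 25 (21.6% and 10.7%). Scaled for placeable reads, the genes without a coding start kept their maximum 25 bp inside the gene, at 2.18, 2.56 and 2.05.

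By amino acid, genes outside tandem clusters differed by less than 2-fold in mean signal. The gene alone was highest for tRNA-His (10 genes) in each library, at 2.79, 3.10 and 2.46. tRNA-Tyr was second in each library, at 2.60, 2.97 and 2.29 over 16 genes, and these 2 kinds also led with the flanks included, where tRNA-Tyr was first (2.24, 2.50 and 2.08). Next came tRNA-Ala (33 genes) at 2.24, 2.57 and 2.06 and tRNA-Met (21 genes) at 2.10, 2.67 and 2.03, which changed places between libraries. At the lower end, tRNA-Cys (10 genes) had 1.46, 1.95 and 1.57 and tRNA-Asp (25 genes) had 1.62, 1.84 and 1.53. The order of these 2, and of most amino acids between them, was not the same in the 3 libraries. A site over the gene alone in all 3 libraries was found at 5 of 10 tRNA-His and 7 of 16 tRNA-Tyr genes, and at none of 10 tRNA-Cys genes. The share was 16.3% over all 479 genes outside clusters and 4.66% over genome tiles of gene length, and with so few genes the count for tRNA-Cys does not set it apart. Genes of 1 amino acid share sequence and are not replicates.

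**Figure D3:**
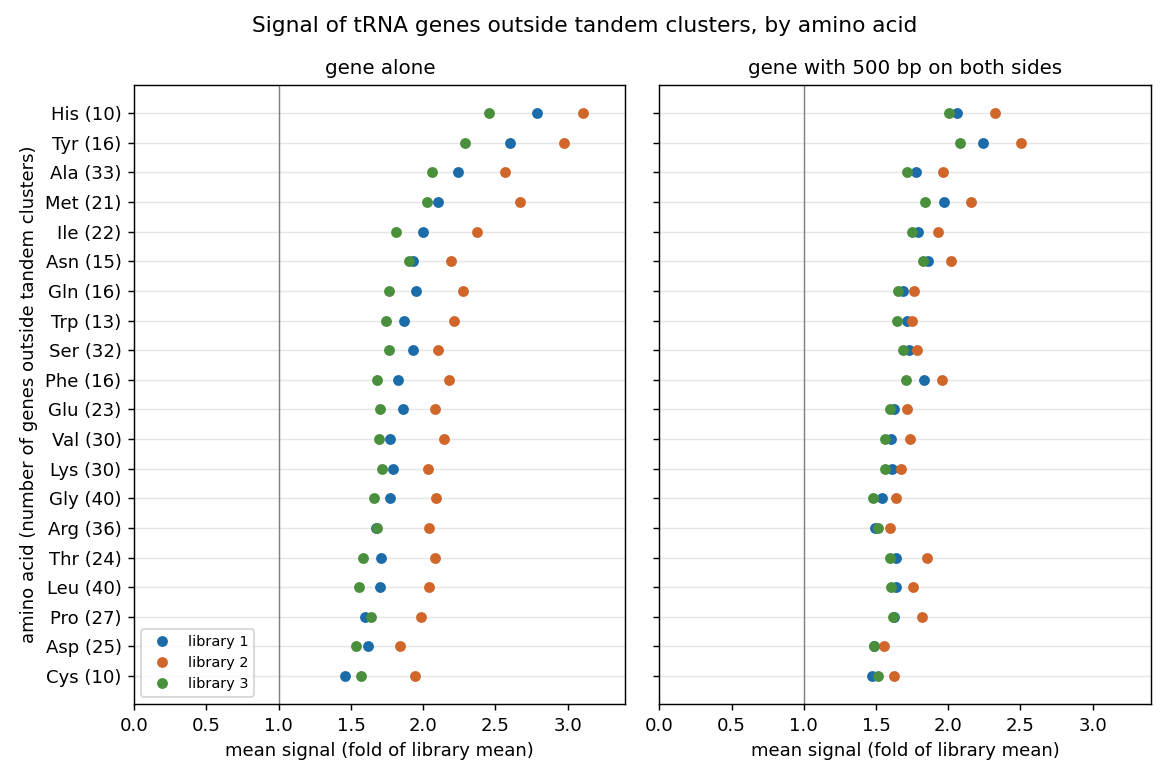
Mean signal (fold of library mean) of tRNA genes outside tandem clusters by amino acid, over the gene alone on the left and with 500 bp on both sides on the right. Each point is a library, amino acids are ordered by the signal of the gene alone, and gene numbers are in brackets. tRNA-His and tRNA-Tyr lie at the top in every library, and all points lie above 1.

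Within tRNA-Met, the initiator, which starts translation, and the elongator, which serves internal codons, were alike in level. The 10 initiator genes had 2.24, 2.79 and 2.00 over the gene alone in libraries 1, 2 and 3, and the 11 elongator genes had 1.98, 2.55 and 2.05, so that library 3 had the opposite order. The tRNA-Ala genes with the anticodon AGC (16 genes) were above the other tRNA-Ala kinds with 2.47, 2.82 and 2.18, against 2.16, 2.51 and 1.90 for CGC (7 genes) and 1.92, 2.21 and 1.98 for TGC (10 genes). The 37 genes outside clusters without the letters GTTCNANNC need not lack a B box, as given above. They are these tRNA-Ala, tRNA-His and initiator tRNA-Met genes and 1 tRNA-Arg gene, and had 2.48, 2.86 and 2.18. The 442 genes with the letters had 1.82, 2.14 and 1.72. Outside clusters the letters vary within tRNA-Ala, tRNA-Met and tRNA-Arg, the last with 1 gene that lacks them. In tRNA-Ala the genes without them were the higher ones in each library, but they are exactly those with the anticodon AGC. In tRNA-Met they are exactly the initiator genes, and the order was not the same in the 3 libraries. The letters thus cannot be told apart from the anticodon in tRNA-Ala or from the initiator kind in tRNA-Met. All tRNA-His genes lack them, so there the letters and the amino acid cannot be told apart.

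Upstream letters went with almost no difference. Outside clusters the 176 genes with TATAA had 1.88, 2.22 and 1.76 over the gene alone, and the 303 without had 1.86, 2.19 and 1.76. The 364 genes with CAA had 1.85, 2.18 and 1.74, and the 115 without had 1.92, 2.25 and 1.80. Genes with CAA were thus slightly lower in each library, and genes with TATAA were equal or slightly higher. Genes with an intron (27 outside clusters, of tRNA-Tyr and tRNA-Met) had 2.35, 2.80 and 2.19, and genes with a single exon (452) had 1.84, 2.16 and 1.73. All tRNA-Tyr and all elongator tRNA-Met genes have an intron and no others do, so the intron and the kind of tRNA cannot be told apart. The means of the 5 chromosomes outside clusters, with the flanks, lay between 1.65 ± 0.07 on chromosome 3 and 1.80 ± 0.10 on chromosome 4 (SD, n = 3).

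Copies of 1 gene sequence differed almost as much as genes of other sequences. The 602 genes had 206 distinct sequences, of which 108 were found once, and 494 genes shared theirs with at least 1 other nuclear tRNA gene. Outside clusters 29 sequences had 5 or more genes, 254 genes in all. Within a sequence, the gene with the highest signal (with flanks, mean of 3 libraries) exceeded the one with the lowest by 1.57 to 6.21 times, with a median of 2.47 times. For the gene alone the range was 1.33 to 5.79 times, with a median of 2.61. Over 1315 pairs with the same sequence the median difference was 1.36-fold, and over 113166 pairs with other sequences it was 1.40-fold. For the gene alone these were 1.39-fold and 1.44-fold. Since a read wholly inside such a gene cannot be placed, these values rest on reads that reach the flanks.

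**Figure D4:**
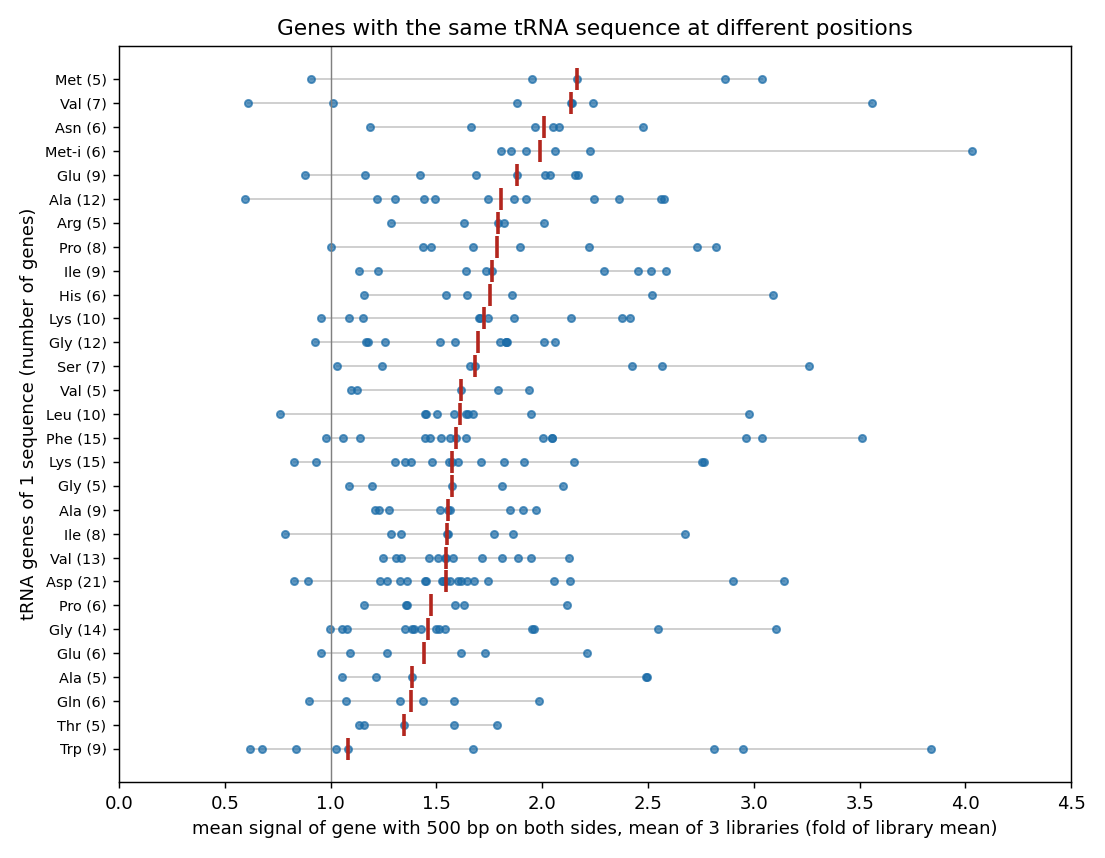
Signal of tRNA genes with 500 bp on both sides (fold of library mean, mean of 3 libraries) for the 29 sequences with 5 or more genes outside tandem clusters. Each row is a sequence, named by its amino acid with the number of genes, each point a gene, and each red mark the median of the row. Points of most rows spread from near 1 to above 2, and the widest row, of tRNA-Trp, spans 6.21 times.

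The tRNA-Trp and tRNA-Val sequences printed above show this spread. AT4G17612 (chromosome 4, 9815203 to 9815274, minus strand) had a signal of 3.96, 4.32 and 3.22 in libraries 1, 2 and 3. AT3G03845 (chromosome 3, 981969 to 982040, plus strand), the same 72 bases, had 0.77, 0.48 and 0.78. The libraries did not overlap, and the means differed 5.66-fold. The next protein-coding start lay 176 bp from the former and 583 bp from the latter. Of the tRNA-Val genes, AT5G56975 (chromosome 5, 23054771 to 23054844, minus strand) had 3.81, 3.83 and 3.04, and AT3G26747 (chromosome 3, 9839184 to 9839257, plus strand) had 0.62, 0.48 and 0.73. These differed 5.83-fold, and their coding starts were 1669 and 2859 bp away. Reads over the 4 regions could be placed in 95.8 to 97.4% of cases. Over the gene alone the share was 71.2% at AT4G17612 and 63.6% at AT3G03845, and 77.6% at AT5G56975 and 76.9% at AT3G26747, lower at the low copy of each pair, and its part in the difference was not tested.

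The 50 bases before these genes are shown next because they differ where the genes do not, with TATAA in capitals. TATAA was present before the accessible tRNA-Trp gene and absent before the other, whereas for tRNA-Val it was present only before the gene of low signal.
AT4G17612, chromosome 4, 9815275 to 9815324, minus strand: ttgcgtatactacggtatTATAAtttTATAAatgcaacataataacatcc
AT3G03845, chromosome 3, 981919 to 981968, plus strand: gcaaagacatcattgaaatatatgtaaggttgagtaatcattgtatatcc
AT5G56975, chromosome 5, 23054845 to 23054894, minus strand: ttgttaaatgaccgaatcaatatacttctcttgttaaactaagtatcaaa
AT3G26747, chromosome 3, 9839134 to 9839183, plus strand: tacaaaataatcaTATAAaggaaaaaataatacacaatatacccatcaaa

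The 8 genes of highest signal (with flanks, at least 90% of reads placeable) were chosen by level, and their values are a description. They belonged to 6 amino acids, 6 had a coding start within 500 bp, all 8 had a site in every library and 7 had it over the gene alone. The first was the initiator tRNA-Met gene AT1G69000 (chromosome 1, 25941164 to 25941235, plus strand), with 4.17, 4.22 and 3.69. Its signal was higher after the gene than before it, with 5.51, 5.69 and 4.37 in the 500 bp downstream and 2.89, 2.75 and 3.05 upstream. The tRNA-Tyr gene AT3G10415 (chromosome 3, 3238367 to 3238456, minus strand), which has an intron and a sequence of its own, had 4.40, 4.10 and 3.54. Here the order was reversed, with 5.24, 4.94 and 4.10 upstream and 3.53, 3.31 and 3.03 downstream. The nearest coding start lay 203 bp away on the upstream side of AT1G69000. At AT3G10415 it lay 144 bp away on the downstream side, so at both genes it was on the side of lower signal. The tRNA-Phe gene AT4G01865 (3.61, 3.86 and 3.05), the elongator tRNA-Met gene AT5G65305 (3.45, 3.82 and 3.00), the tRNA-Ser gene AT4G24565 (3.26, 3.85 and 3.01) and the initiator gene AT5G41675 (3.20, 3.87 and 2.77) completed the group with AT4G17612 and AT5G56975. AT4G24565 rose over the gene itself, at 4.58, 4.71 and 3.70, above either flank in each library.

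The 5 genes of lowest signal by the same rule had no site in any library. The lowest was the initiator tRNA-Met gene AT1G42120 (chromosome 1, 15730615 to 15730686, minus strand), with 0.37, 0.23 and 0.47. It differs from AT1G69000 at 2 bases, and its mean was 11.3-fold lower. The next protein-coding start was 13481 bp away, the farthest of all genes named here. The tRNA-Leu gene AT5G09345 had 0.65, 0.41 and 0.58, and the tRNA-Pro gene AT1G28720, part of a tandem cluster, had 0.60, 0.79 and 0.81. AT3G26747 and AT3G03845 were the others. In all 5 no library reached 1.

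Sites over the gene alone reached their highest fold over the background of the peak caller, in the authors' lists, at the tRNA-Ile gene AT5G56365 (chromosome 5, 22828131 to 22828204, plus strand), with 5.58, 5.87 and 4.89. The tRNA-Ala genes AT5G08075 (5.56, 6.18 and 4.48) and AT2G02600 (5.88, 6.07 and 3.90) followed, then AT1G69000 (5.37, 5.55 and 3.86) and the tRNA-Ile gene AT1G06480 (4.65, 5.35 and 4.36). Library 3 was the lowest for each of these 5 genes. AT5G56365 and AT1G06480 have the same sequence on different chromosomes, and their signals with flanks, 2.45 ± 0.14 and 2.51 ± 0.26 (SD, n = 3), did not differ beyond the spread. AT5G08075 was lopsided, with 4.04, 4.44 and 3.10 upstream, where a coding gene starts 298 bp away, and 1.07, 1.03 and 1.12 downstream. At AT1G69000 and AT3G10415, given above, the nearest coding start lay on the lower side, and its part in such differences was not tested.

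Libraries gave similar levels across genes. Across the 479 genes outside clusters, Pearson's r between libraries was 0.937 to 0.963 with flanks and 0.849 to 0.870 for the gene alone. It was taken on log2 signal after adding a small constant, and is a description, since libraries share the same placeable positions. Among genes with a signal of at least 0.5 in each library, the largest differences between libraries were below 2-fold. The tRNA-Pro gene AT3G01705 had 1.40, 0.77 and 1.30, with a highest to lowest ratio of 1.82, and sites in libraries 1 and 3 only. The tRNA-Val genes AT4G01355 (0.76, 1.27 and 0.99) and AT1G01870 (1.31, 0.80 and 1.17) had ratios of 1.67 and 1.64. Library 2 was the extreme in each of the 3, lowest in the first and the last and highest in AT4G01355.

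Tandem clusters, defined as 3 or more tRNA genes with gaps of at most 1000 bp, numbered 8 and held 123 genes. Their mean signal with flanks was 0.41, 0.41 and 0.44, against 1.69, 1.81 and 1.64 for the other 479 genes, a ratio of 0.245 ± 0.020 (SD, n = 3, exact sign-flip permutation p = 0.25, the smallest possible). No gene of a cluster was overlapped by a site in any library over the gene alone. Of these genes 81 are in the largest cluster, where 1.36% of reads over the gene can be placed. Tiles of gene length were overlapped in 5.8%, 8.78% and 7.94% of cases. The other 42 genes are too few to set their count apart from that. Of the 123 genes, 120 had no coding start within 500 bp, and among genes without such a start the ratio was 0.251. Without the largest cluster the ratio was 0.693, 0.651 and 0.769, nearer to 1 but still below it in each library.

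The largest cluster lies on chromosome 1 from 21268787 to 21308471 and holds 81 genes in 39.7 kb. All are on the plus strand, and they follow each other as 27 repeats of tRNA-Ser, tRNA-Tyr, tRNA-Tyr, with a median repeat of 1531 bp. The 54 tRNA-Tyr and 27 tRNA-Ser genes had 23 distinct sequences, of which the most frequent was found at 19 tRNA-Tyr genes. On average 1.03% of reads over these regions have a single position in the reference. The mean signal of its genes with flanks was 0.0104, 0.0105 and 0.0101, and 97.5%, 97.0% and 96.7% of the 1627 windows were empty in libraries 1, 2 and 3. The 5 kb before the cluster had a signal of 1.60, 1.56 and 1.52, with reads in all 200 windows, and the 5 kb after it 1.42, 1.68 and 1.47. The accessibility of this cluster could therefore not be read from these counts. At its edges few reads could be placed, 19.2% over the region of the first gene AT1G56730 and 17.4% over that of the last gene AT1G57530. AT1G56730 had 0.91, 0.89 and 0.94 in the 500 bp upstream and no count over the gene. AT1G57530 had 0.35, 0.29 and 0.31 downstream. These are averages over whole flanks, and the windows next to AT1G56730 were empty, with counts only farther upstream.

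**Figure D5:**
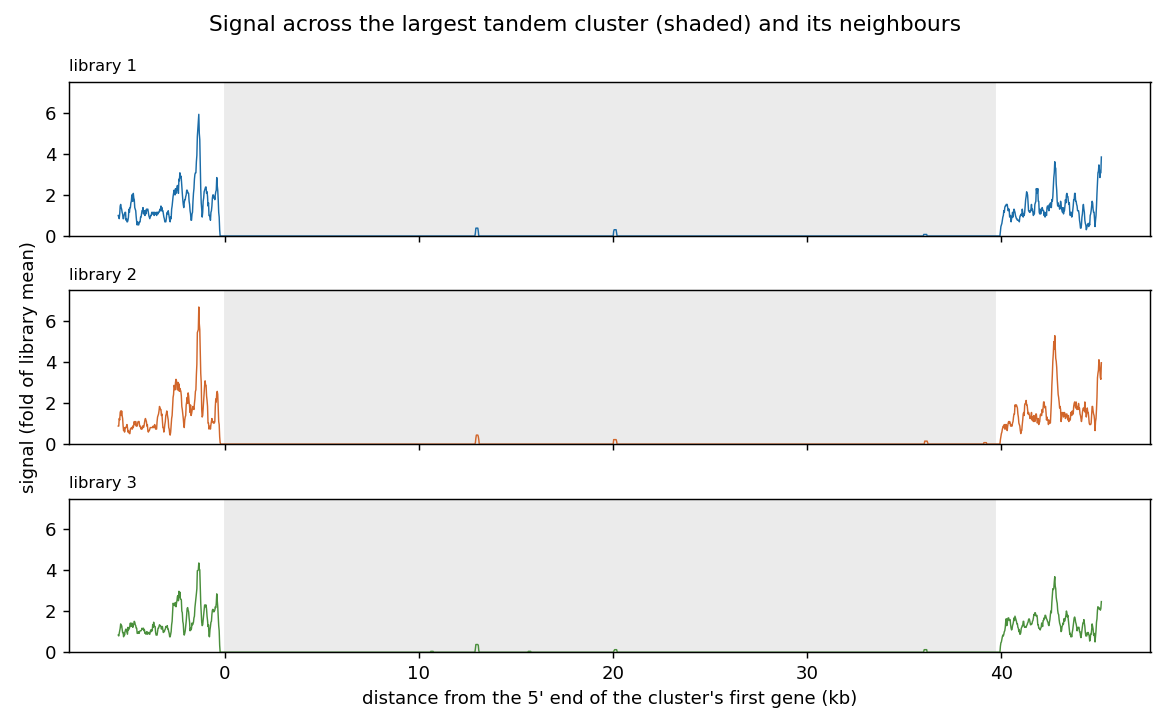
Signal (fold of library mean) in 100-bp windows across the largest tandem cluster, shaded, and about 5 kb on both sides, by distance in kb from the 5′ end of its first gene, one panel per library. Counts are present on both sides and end within 500 bp of the cluster, and over its regions 97.5%, 97.0% and 96.7% of windows are empty.

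A comparison within 1 sequence shows the loss. The tRNA-Ser sequence printed for AT1G56760 is that of 13 genes in the cluster and 7 outside. The 13 genes had 0 counts over the gene in every library, where none of the reads can be placed. The 7 genes had 2.06, 2.32 and 1.76, with 70.8% of reads placeable. Genes of tRNA-Tyr likewise had the lowest mean of all amino acids when clusters were included (0.60, 0.69 and 0.53 over the gene alone) and the second highest without them.

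The other 7 clusters could be read. Together their 42 genes, 38 of tRNA-Pro and 4 of tRNA-Cys, had a signal of 1.17, 1.18 and 1.26 with flanks and 1.06, 1.16 and 1.13 over the gene alone. Their gene to flank ratio was 0.90, 0.98 and 0.89, below 1 where that of genes outside clusters was 1.12, 1.23 and 1.08. Scaled for placeable reads, the ratios were 1.14, 1.23 and 1.13 against 1.32, 1.46 and 1.27. A site in all 3 libraries lay at the gene or its flanks in 2 of the 42 genes (4.76%) and in 252 of the 479 genes outside clusters (52.6%). The share of genome tiles, 18.4%, lay between them. Regions of neighbouring genes in a cluster overlap, so a site or its absence can count for several genes. The 42 are therefore not separate stretches as tiles are. Nearly all clustered genes lacked a coding start within 500 bp. Of the 234 genes outside clusters that also lacked one, 97 (41.5%) had a site in all 3 libraries.

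Clustered tRNA-Pro genes were below tRNA-Pro genes elsewhere, with 1.25, 1.27 and 1.35 over 38 genes against 1.63, 1.82 and 1.62 over 27. A coding start lay within 500 bp of 14 of these 27, and of 17 of all 65 tRNA-Pro genes, and its part in the difference was not tested. The sequence printed for AT1G28920, however, had 1.26, 1.27 and 1.37 at its 30 genes in clusters and 1.11, 1.12 and 1.12 at the 4 outside, so for it the order was the opposite in each library. Another tRNA-Pro sequence, with the anticodon AGG, had 1.29, 1.45 and 1.40 at 3 genes in clusters and 1.44, 1.66 and 1.51 at 6 outside, lower in clusters in each library. The 2 sequences thus differed in direction, and each comparison has few genes on a side. Clusters differed among themselves. On chromosome 2, the 9 tRNA-Pro genes from 14350386 to 14356592 had 1.47, 1.74 and 1.63, and a site in all libraries at 1 gene. On chromosome 1, the 11 genes from 10096951 to 10102064 had 1.10, 1.03 and 1.14 and no site in any library. The first and last genes of the latter, AT1G28820 and AT1G28920, had 1.13, 1.04 and 1.18, and 1.01, 1.20 and 1.32, and those of the former, AT2G33890 and AT2G33970, had 1.19, 1.32 and 1.53, and 1.12, 1.17 and 1.38. The 6 genes from 10106090 to 10108781, with AT1G28930 (1.33, 1.31 and 1.58) and AT1G28990 (1.48, 1.33 and 1.71) at the ends, had 1.52, 1.47 and 1.72, and the 4 tRNA-Cys genes on chromosome 5 had 0.40, 0.38 and 0.40, with 68.0% of reads placeable.

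Empty windows over tRNA genes followed placeability. Of 22995 windows over the regions of the 602 genes, 7.34%, 7.27% and 7.10% were empty, close to the 6.49%, 8.18% and 5.79% of all nuclear windows. In windows where no read has a single position (1604 windows), 100%, 99.6% and 99.4% were empty. In windows where all reads do (16740), 2, 3 and 0 windows were empty. Windows without a uniquely placeable read made up 95.0%, 95.6% and 97.7% of the empty ones, and windows of the largest cluster 94.0%, 94.4% and 96.4%. Among genes grouped by the share of placeable reads over the gene alone, those with 25 to 50% (14 genes) had 0.702, 0.671 and 0.665, those with 50 to 75% (130 genes) had 1.60, 1.86 and 1.49, and those above 75% (380 genes) had 1.90, 2.24 and 1.81. The 25 to 50% genes were also lower with their flanks, at 0.87, 0.85 and 0.88.

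Genes that act with tRNA genes were found by the product names of the annotation. Aminoacyl-tRNA synthetases load tRNAs with amino acids. The window around the start of 64 genes with tRNA synthetase or tRNA ligase in the product name had a mean signal of 1.43, 1.56 and 1.42. A site in all 3 libraries was found at 29 (45.3%). The names also took in genes named only for a related domain, such as AT4G16510 (3.95, 4.34 and 3.47) and AT5G19720 (0.71, 0.60 and 0.72). The values are therefore not those of the synthetases alone. The 16 genes named for RNA polymerase III, TFIIIC or TFIIIB had 1.32, 1.42 and 1.29, and a site in all 3 libraries at 10 (62.5%). All protein-coding genes had 1.36, 1.47 and 1.33, and 41.9% had such a site. The highest of the 16 was AT3G49000, named as an RPC82 family subunit of RNA polymerase III, with 3.70, 4.31 and 3.21. AT1G58766 and AT1G59077, both named as B-block-binding subunits of TFIIIC, had no counts in any library, and AT1G59453, of the same name, had 0.35, 0.33 and 0.48. The share of placeable reads was not computed for these genes.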

How the data were processed

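ATAC-seq was analysed in 3 libraries of 1 group, root INTACT nuclei. The authors used Bowtie and TAIR10, kept only uniquely mapped reads, removed duplicates and called peaks per library with MACS2 without a model, at a fixed shift and extension. Versions, and whether counted reads were shifted to the Tn5 cut site, are not given in the sources used here. They deposited raw read counts over 100-bp windows every 25 bp, without empty windows, and peak lists with the fold enrichment (a ratio) and the −log10 of the q-value. Coordinates are 1-based, from the TAIR10.1 annotation, whose 5 nuclear chromosomes have the lengths used in the deposited files.

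From the counts, signal was the mean over windows centred in a region over the library mean. Every 61-base read overlapping a member (812794 positions) was aligned back to the reference, organelles included, with bwa 0.7.19 allowing 2 mismatches, and called unique with a single hit. Scaled values divide a window's count by its unique share where that is at least 0.5. Site overlap was counted from 1 bp. Signals were tested by the exact sign-flip permutation test over libraries. The scripts used Python 3.11.15, numpy 2.4.6 and pandas 2.3.3 and were tested on simulated data. Depth differs, with a mean count per window of 13.0, 13.6 and 23.9. Members and lists were chosen with earlier results of these data known.

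Named genes were the 8 highest and 5 lowest by the geometric mean of the region signal with at least 90% unique reads, the 5 of highest fold of a site over the gene, the 3 with the largest ratio between libraries (signal at least 0.5 in each), and the ends of the 4 largest clusters of 5 or more genes. Further genes were named for their sequence or product after values were seen. Alternatives were the flank, the library average, unique windows, medians, cluster definitions, site thresholds and leaving out each library.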

Additional observations from a re-analysis of the deposited data

How the results depend on the processing

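No paired analysis was possible because the design has no second group to pair, and the tested ratios were taken within each library. The mean of each signal stayed above 1 in the alternatives run. The mean with flanks (1.45) was 1.67 in windows with unique reads only, 1.70 with each cluster counted once, 1.20 without coding starts within 500 bp, 1.35 over the mean of windows with counts, 1.76 over the library median and 1.60 with 250-bp flanks. For the gene alone (1.62) the first 3 were 2.55 (18 genes), 1.92 and 1.31, and the library median gave 1.98. The gene to flank ratio (1.13) was 1.28 in unique windows and 1.01 with 250-bp flanks, where libraries 1 and 3 (0.995 and 0.978) turned below 1. The ratio of clustered to other genes (0.245) was 0.768 in unique windows (44 genes), 0 by medians, 0.170 with gaps of at most 500 bp and 0.201 for the gene alone. Alternatives chosen after seeing the data gave, scaled by unique share, 1.76, 2.31, 1.34 and 0.758 for these 4 results, without the largest cluster 1.67 and 1.87 for the signals and 0.704 for the cluster ratio, and outside all clusters 1.71 and 1.94. Empty windows (7.24%) were 7.79% when wholly inside regions and 0.395% without the largest cluster. Of the empty windows, 96.1% lay where no read is unique, or 86.1% counting exact copies only. Genes with a site in all libraries (255) numbered 163 at a −log10 q of at least 5. They numbered 100 of the 354 without a near coding start (28.2%, tiles 18.4%). Over the gene alone (78) there were 25 of these 354 (7.06%, tiles 4.66%), and 1 by summit. The share of tiles was not computed at the stricter q, by summit or with 1 library left out. Those counts therefore cannot be set against the genome. Leaving out 1 library gave 1.41 to 1.48, 1.52 to 1.70, 1.08 to 1.16, 0.234 to 0.254, 7.18 to 7.31%, 95.3 to 96.6%, 263 to 301 and 80 to 108 in the order above. Values of genes alone rest on few windows, which limits their precision, and the reads carry no molecular identifiers.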
